A study of Mus musculus with 14 samples.

Results

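The proteasome subunit genes were taken as every row of the count table whose symbol starts with Psm, then a letter from a to g and a digit, leaving out Psmb8 and Psmb9. This gave 46 of the 10303 genes listed, of which 15 encode the core particle (Psma, Psmb), 21 the regulatory particle (Psmc, Psmd) and 10 activators, an inhibitor and assembly factors (Psme, Psmf, Psmg). A total of 45 passed the filter on low counts. The member that did not, Psmd9, had 0 to 7 counts per library. Psmc3ip carries the symbol pattern but encodes a partner of meiotic recombination proteins and no proteasome subunit, and Psmd5, Psmd9 and Psmd10 encode chaperones that help to build the regulatory particle.

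The libraries came from natural killer T (NKT) cells of the thymus, T cells with a restricted receptor that recognise lipids on CD1d, of young male wild-type mice. Mice were injected intraperitoneally with dexamethasone, a synthetic glucocorticoid, at 200 ug for each 10 g of body weight. Cells were taken 18 h (n = 5 libraries) or 3 d (n = 4) afterwards, and the age-matched control mice received 8% ethanol and were sampled at 3 d (n = 5), so the 18 h group was compared with a vehicle group of another time. The assay was bulk MARS-seq, which counts transcript 3′ ends, and the labels do not say whether libraries of a group are separate mice, so p-values measure the spread between these libraries.

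The proteasome is the protease complex that degrades most ubiquitin-tagged proteins. Its core particle is a barrel of alpha rings (Psma), which gate the entrance, around beta rings (Psmb), some of which cut. The regulatory particle caps the barrel, where Psmd subunits bind and remove ubiquitin and a ring of Psmc ATPases unfolds the substrate. In cells exposed to interferon, and constitutively in many immune cells, the catalytic subunits Psmb5, Psmb6 and Psmb7 are replaced by the immune forms Psmb8, Psmb9 and Psmb10, and the Psme1–Psme2 activator docks on the core, which alters the peptides made for antigen presentation.

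Total counts were 975704 to 2201035 per library, levels are given as CPM, counts brought to a common library total (1 count equals 0.471 to 1.11 CPM), and the proteasome genes took 0.774% to 0.96% of the counts. All 10 NKT markers of the list used were in the table, with a summed level of 3170 to 3660 CPM in vehicle, 1900 to 2440 CPM at 18 h and 2770 to 3480 CPM at 3 d. In the test used below, 5 of the 10 were lower than vehicle at 18 h and 4 at 3 d, against 17.3% and 13.8% of all genes. None was higher than vehicle at either time. Markers of CD4+CD8+ thymocytes (10 of 12 in the table, Rag2 and Ccr9 not) summed to 235 to 505, 163 to 1600 and 123 to 147 CPM, and those of single-positive T cells (10 of 10) to 429 to 716, 466 to 2810 and 257 to 338 CPM. The high values came from 18 h replicates 2 and 3, in which Cd8b1 reached 1008 and 648 CPM against 9.43 to 71.2 CPM elsewhere. Macrophage and dendritic cell markers (13 of 13) summed to 1220 to 2160, 1080 to 2710 and 2520 to 8500 CPM. B cell markers (2 of 5 in the table) reached at most 14.6 CPM and thymic epithelial markers (2 of 6, without Psmb11) at most 6.62 CPM in any library. In bulk libraries, fewer cells of a type and less RNA per cell cannot be told apart. The part of these cells in the results below was not tested, and results without 18 h replicates 2 and 3 are given where the call of a named gene differs.

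The promoters of 4 genes that were lower at both times, and of the 1 gene whose 18 h libraries all lay above the vehicle libraries, are shown because the results turn on these genes. Each is the RefSeq window (GRCm38.p6) of 250 bases before to 50 bases after the annotated start, 300 bases in all, written 5′ to 3′ on the gene's strand. Capitals mark CCAAT boxes (CCAAT on either strand, so also ATTGG) in the first 4 and, in Psme2b, a match to GNACANNNTGTNC, the form of a glucocorticoid receptor element.
Psmc1 (chr12:100109952-100110251, plus strand): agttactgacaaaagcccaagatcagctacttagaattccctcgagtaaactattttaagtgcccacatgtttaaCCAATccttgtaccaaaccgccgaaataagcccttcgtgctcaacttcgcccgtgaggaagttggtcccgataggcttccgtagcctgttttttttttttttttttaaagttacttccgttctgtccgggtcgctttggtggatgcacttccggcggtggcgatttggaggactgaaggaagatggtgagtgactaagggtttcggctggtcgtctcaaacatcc
Psmd14 (chr2:61711444-61711743, plus strand): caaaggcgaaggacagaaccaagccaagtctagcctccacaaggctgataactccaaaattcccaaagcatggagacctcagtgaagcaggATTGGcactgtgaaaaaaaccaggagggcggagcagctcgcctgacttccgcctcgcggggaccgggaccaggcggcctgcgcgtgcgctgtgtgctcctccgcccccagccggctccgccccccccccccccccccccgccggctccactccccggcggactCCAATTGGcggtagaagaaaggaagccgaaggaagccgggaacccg
Psma2 (chr13:14612992-14613291, plus strand): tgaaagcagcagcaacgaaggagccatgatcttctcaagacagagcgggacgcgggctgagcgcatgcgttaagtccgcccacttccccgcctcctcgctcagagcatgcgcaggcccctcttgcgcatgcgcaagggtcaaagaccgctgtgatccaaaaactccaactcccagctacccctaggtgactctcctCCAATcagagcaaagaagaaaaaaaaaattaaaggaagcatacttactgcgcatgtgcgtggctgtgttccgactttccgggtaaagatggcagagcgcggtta
Psme3 (chr11:101315963-101316262, plus strand): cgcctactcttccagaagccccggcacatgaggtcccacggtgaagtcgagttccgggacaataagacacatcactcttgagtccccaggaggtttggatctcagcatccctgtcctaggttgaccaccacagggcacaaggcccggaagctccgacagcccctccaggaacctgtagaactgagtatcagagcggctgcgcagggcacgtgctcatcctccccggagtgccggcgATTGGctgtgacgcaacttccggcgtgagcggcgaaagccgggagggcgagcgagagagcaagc
Psme2b (chr11:48946361-48946660, minus strand): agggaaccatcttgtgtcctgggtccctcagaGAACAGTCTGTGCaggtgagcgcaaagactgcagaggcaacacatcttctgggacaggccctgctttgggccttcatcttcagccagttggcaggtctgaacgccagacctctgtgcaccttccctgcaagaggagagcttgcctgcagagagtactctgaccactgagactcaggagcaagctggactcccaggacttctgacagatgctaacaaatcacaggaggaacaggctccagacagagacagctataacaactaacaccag
The CCAAT match began 175 bases before the start in Psmc1, 54 before in Psma2 and 14 before in Psme3. Psmd14 held 3 matches, of which the pair after the start overlaps, since CCAATTGG reads as the box on each strand. Matches to CCAAT stood in 13 of the 39 proteasome genes that have a RefSeq promoter (33.3%), against 37.4% of 32851 mouse promoters of that length. They stood in 4 of the 4 promoters at hand of genes lower at both times, while promoters of Psmc3, Psmd7 and Psmg2, and of Psmb1, Psmb2, Psmb7 and Psmd3, were not used here. GNACANNNTGTNC was found in Psme2b, where it reads GAACAGTCTGTGC and begins 218 bases before the start, and in no other of the 39, against 0.5% of all promoters. Other motifs searched on both strands were TGACNNNGC, the antioxidant response element (15.4% of the 39 against 12.4% of all), CACGTG, the E-box (10.3% against 7.2%), TTCNNNGAA, the interferon gamma activated site (5.13% against 8.3%), and GAAANNGAAA, the interferon-stimulated response element (12.8% against 3.4%). The motifs were chosen after expression values were known, and a match describes letters, not a bound site.

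At 18 h, 7 of the 20 tested genes of the regulatory particle fell (35%, against 17.3% of all genes called lower), none rose, and 17 of 20 fold changes were below 0. In either direction 35% of this class was called, close to the 34.3% of all genes. Without Psmc3ip, which is no subunit, 6 of 19 fell (31.6%). Over all 45 proteasome genes, 13 were called changed at an adjusted p below 0.05 in edgeR's quasi-likelihood test (28.9%), against 34.3% of all 7965 genes tested, which is no larger a share than among other genes. Of the calls, 10 were lower (22.2% of the members, against 17.3% of all genes) and 3 higher (6.67% against 17%). The median log2 fold change was -0.14 over the members and 0.01 over all genes, and 66.7% of members lay below 0 against 49.1% of all genes. With libraries scaled by their totals alone these medians were -0.002 and 0.157, and of all called genes 64.9% were higher in place of 49.5%. Under that scaling 4 regulatory genes and 6 members in all were called lower, and 4 members higher. Of all genes, 34.2% were then called in either direction, 64.9% of them higher. Without 18 h replicates 2 and 3, 6 regulatory genes and 10 members were called lower and 3 members higher. In that run 27.2% of all genes were called in either direction. With only genes of a mean of at least 20 CPM kept, 2 of 41 members rose and 9 fell, where 39.3% of all genes kept were called. By class the median was -0.05 for the core, where 1 gene rose and 1 fell, -0.24 for the regulatory particle and -0.09 for activators and assembly factors, where 2 rose and 2 fell. Groups did not overlap for 7 members, 6 of them lower and 1 higher, against 19.8% of all genes (10.3% lower, 9.45% higher).

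At 3 d, 12 of 45 members were called (26.7%), against 25.9% of all genes. Again 9 were lower (20% of members, 13.8% of all genes) and 3 higher (6.67% against 12.1%). The median log2 fold change was -0.26, against 0.03 over all genes, and 73.3% of members were below 0, against 48%. In the regulatory particle 5 of 20 genes fell (25%, against 13.8% of all genes called lower), none rose, and 17 of 20 were below 0, with a median of -0.30. In either direction 25% of this class was called, against 25.9% of all genes. In the core 2 rose and 2 fell (median -0.03), and among activators and assembly factors 1 rose and 2 fell (median -0.32). The members whose 3 d and vehicle libraries did not overlap numbered 11, all lower, against 21.6% of all genes (12.2% lower, 9.34% higher). With only genes of a mean of at least 20 CPM kept, 3 of 41 members rose and 10 fell, where 31.7% of all genes kept were called. Both comparisons share the 5 vehicle libraries, so calls at the 2 times are not independent. Within that limit, Psma2, Psmc1, Psmc3, Psmd7, Psmd14, Psme3 and Psmg2 were lower and Psma4 and Psme2b higher at both times.

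**Figure D1:**
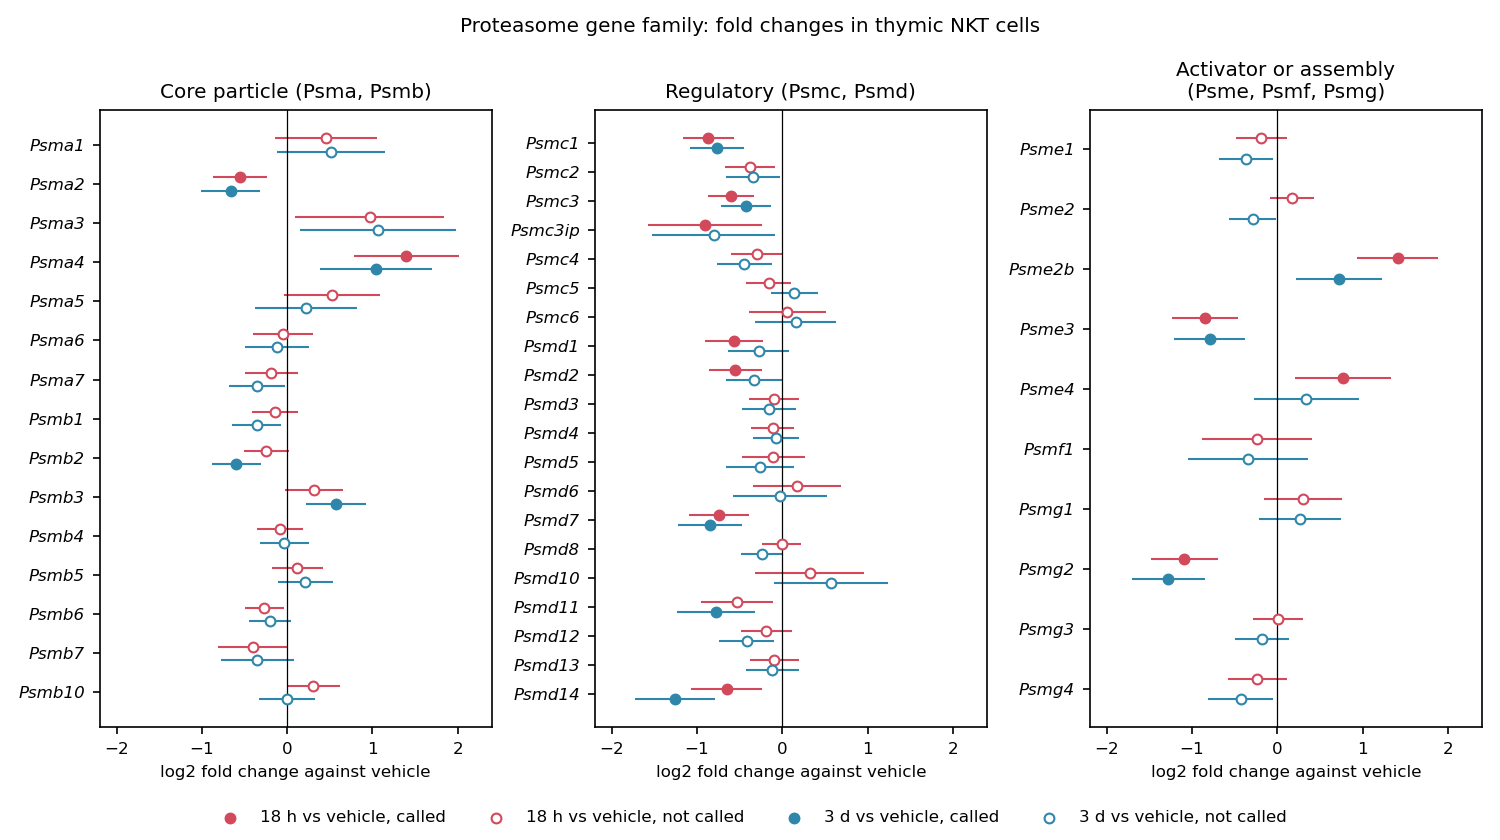
Log2 fold change against vehicle (x axis) for each of the 45 tested proteasome genes (y axis), by class, at 18 h and 3 d. Lines are approximate 95% confidence intervals from the SE by a normal approximation, and filled points passed the test. In the regulatory class every filled point lies left of 0, while in the other classes filled points lie on both sides.

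In the ATPase ring of the regulatory particle, which unfolds substrates, Psmc1 and Psmc3 fell at both times. Psmc1 stood at 188, 240.0, 156, 232 and 218 CPM in the vehicle libraries, at 89.5, 119, 109.6, 109 and 137 CPM at 18 h and at 133, 114, 102 and 135 CPM at 3 d. Every dexamethasone library lay below every vehicle library. The log2 fold change was -0.87 ± 0.15 (SE, adjusted p = 1.86e-04) at 18 h and -0.77 ± 0.16 (SE, adjusted p = 0.00177) at 3 d. Psmc3 stood at 369, 383, 281, 394 and 385 CPM in the vehicle libraries, at 196, 226, 239.9, 251 and 277 CPM at 18 h and at 244, 317, 274 and 246 CPM at 3 d. The 18 h libraries all lay below vehicle, and at 3 d only replicate 2 exceeded vehicle replicate 3, the lowest vehicle library. The difference was -0.60 ± 0.14 (SE, adjusted p = 0.00212) at 18 h and -0.42 ± 0.15 (SE, adjusted p = 0.0377) at 3 d, and the 3 d call was lost when any of vehicle replicates 1, 2, 4 and 5 or 3 d replicates 1, 3 and 4 was left out (-0.43 to -0.38, adjusted p 0.069 to 0.092) and under library totals (-0.35, adjusted p = 0.061). Psmc3 overlaps Slc39a13 on the other strand, which was also lower at 18 h (-1.04 ± 0.28, adjusted p = 0.00741), with strand counting not given in the sources used here. The other ATPases Psmc2, Psmc4, Psmc5 and Psmc6 were not called, with log2 fold changes of -0.38 ± 0.15, -0.30 ± 0.15, -0.16 ± 0.13 and 0.06 ± 0.23 at 18 h and -0.35 ± 0.16, -0.44 ± 0.16, 0.14 ± 0.14 and 0.16 ± 0.24 at 3 d. Psmc2 at 18 h and Psmc4 at 3 d lay close to the threshold (adjusted p = 0.0573 and 0.0507).

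Among the lid subunits, Psmd14, the enzyme that removes ubiquitin chains before degradation, and Psmd7, its structural partner, both fell. Psmd14 stood at 161, 187, 133, 177 and 175 CPM in the vehicle libraries, at 58.5, 121, 131, 109 and 108 CPM at 18 h and at 72.4, 48.4, 46.6 and 108 CPM at 3 d. No dexamethasone library reached the vehicle range, and 3 d replicate 4 was the highest of its group. The log2 fold change was -0.65 ± 0.21 (SE, adjusted p = 0.0228) at 18 h and -1.26 ± 0.24 (SE, adjusted p = 7.33e-04) at 3 d, the latter a 2.39-fold lower level. The direct comparison of 3 d with 18 h gave -0.60 ± 0.24 (SE, adjusted p = 0.107) and was not called. At 18 h Psmd14 missed the threshold without vehicle replicate 2 (-0.61, adjusted p = 0.053), vehicle replicate 4 (-0.63, 0.051) or 18 h replicate 1 (-0.50, 0.056), and under library totals (-0.51, 0.06), while the 3 d call held in every alternative run. Psmd7 stood at 155, 142, 97.6, 171 and 129.5 CPM in the vehicle libraries, at 57.7, 69.3, 77.3, 105 and 104 CPM at 18 h and at 78.4, 74.9, 86.4 and 69.6 CPM at 3 d. At 3 d the groups were apart, and at 18 h replicates 4 and 5 lay above vehicle replicate 3, the lowest vehicle library. Psmd7 differed by -0.74 ± 0.18 (SE, adjusted p = 0.003) at 18 h and by -0.85 ± 0.19 (SE, adjusted p = 0.00298) at 3 d, and both calls held in every alternative run. Psmc1 and Psmd7 were the regulatory genes called at both times under all alternatives.

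The scaffold subunits Psmd1 and Psmd2, which hold ubiquitin receptors and shuttle factors on the particle, were called lower at 18 h, with log2 fold changes of -0.56 ± 0.17 (SE, adjusted p = 0.016) and -0.55 ± 0.16 (SE, adjusted p = 0.00984). At 3 d they differed from vehicle by -0.28 ± 0.18 (SE, adjusted p = 0.273) and -0.33 ± 0.17 (SE, adjusted p = 0.149). The direct comparison of 3 d with 18 h gave 0.28 ± 0.19 (SE, adjusted p = 0.362) and 0.22 ± 0.17 (SE, adjusted p = 0.451), so a difference between the times was not shown. Psmd1 missed the threshold without vehicle replicate 1 (-0.47, adjusted p = 0.057) and under library totals (-0.42, 0.074), and Psmd2 without 18 h replicates 2 and 3 (-0.42, 0.086). Psmd11, which ties the lid to the core, passed at 3 d. Psmd11 stood at 78.2, 65.6, 54.4, 91.6 and 45.5 CPM in the vehicle libraries, at 32.6, 66.8, 42.7, 41.5 and 50.1 CPM at 18 h and at 42.5, 27.5, 37.3 and 48.2 CPM at 3 d. The groups overlapped. It differed by -0.53 ± 0.21 (SE, adjusted p = 0.0589) at 18 h and by -0.78 ± 0.23 (SE, adjusted p = 0.0174) at 3 d, a call that was lost without vehicle replicate 4 (-0.64, 0.064) or 3 d replicate 2 (-0.66, 0.063). At 18 h it passed without replicates 2 and 3 (-0.69, 0.0383). The last bases of Psmd11 and Psmd2 are 99.3% and 97.4% identical to a pseudogene transcript elsewhere, so their counts may be split between copies.

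Psmc3ip, the recombination factor that shares the symbol pattern, was scarce. Psmc3ip stood at 8.12, 10.0, 11.7, 11 and 17 CPM in the vehicle libraries, at 2.51, 7.70, 5.15, 4.24 and 11 CPM at 18 h and at 6.64, 5.69, 7.62 and 6.20 CPM at 3 d. It differed by -0.91 ± 0.34 (SE, adjusted p = 0.0446) at 18 h. The call was lost when vehicle replicate 2, 3, 4 or 5 or 18 h replicate 1, 3 or 4 was left out (-0.94 to -0.73, adjusted p 0.057 to 0.13). It was also lost without 18 h replicates 2 and 3 together (-0.94, 0.0925) and under library totals (-0.77, 0.0861). Scaling by the upper quartile (-0.89, 0.0501), DESeq2's Wald test (-0.92, 0.0502) and a fit of those 2 groups alone (-0.88, 0.066) lost it too. Psmc3ip overlaps Mlx on the other strand, which was lower too (-0.59 ± 0.15, adjusted p = 0.00373). Of the other regulatory genes, 12 were called at neither time, among them the ubiquitin receptor Psmd4 (-0.11 ± 0.13 and -0.07 ± 0.14) and Psmd8 (-0.01 ± 0.12 and -0.24 ± 0.12). Their log2 fold changes ran from -0.38 to 0.32 at 18 h and from -0.44 to 0.57 at 3 d.

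**Figure D2:**
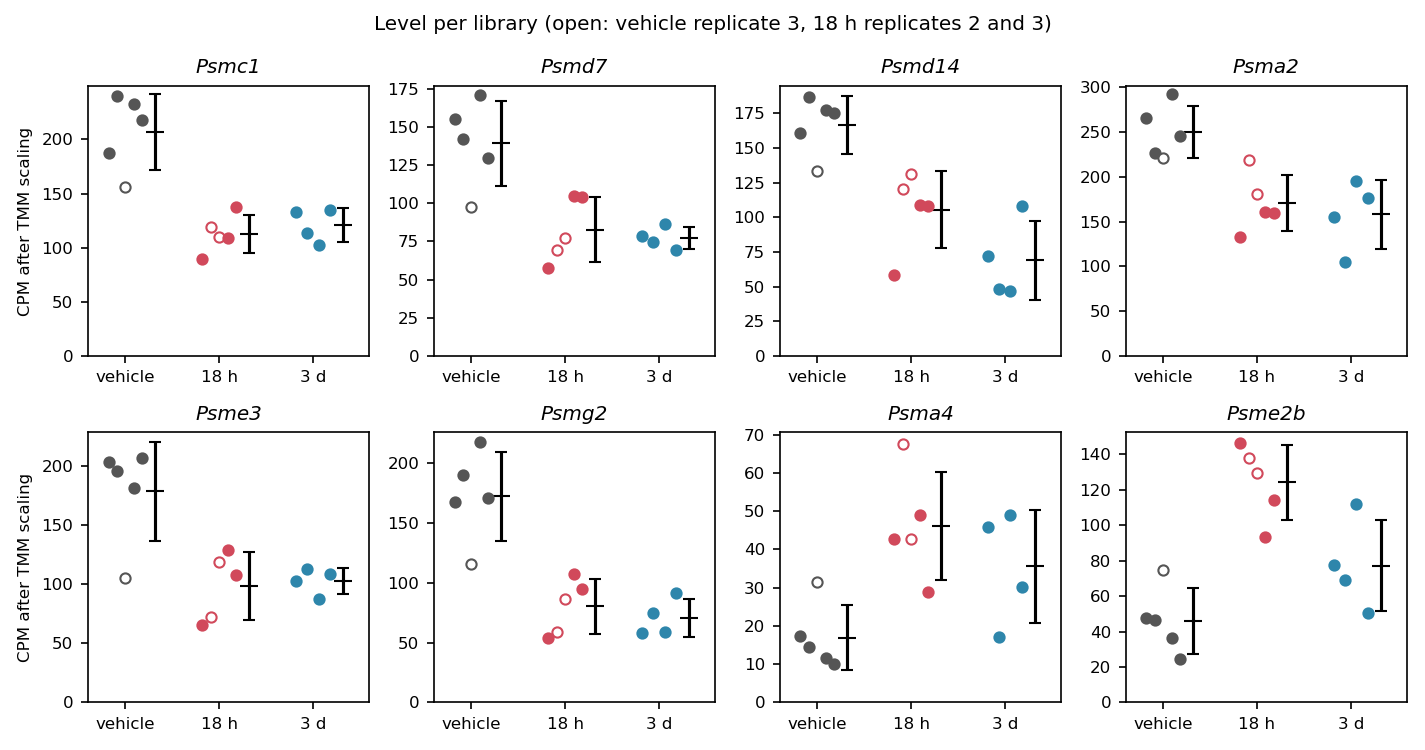
CPM in each library (y axis) for 8 proteasome genes in vehicle, 18 h and 3 d libraries (x axis), with the mean and SD; open circles are vehicle replicate 3 and 18 h replicates 2 and 3. For Psmc1, Psmd14, Psma2 and Psmg2 every dexamethasone library lies below every vehicle library, and for Psme2b every 18 h library lies above.

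In the core, the alpha subunits split. Psma2 fell and Psma4 rose at both times. Psma2 stood at 265, 227, 221, 292 and 246 CPM in the vehicle libraries, at 133, 218, 180.3, 161 and 160.0 CPM at 18 h and at 156, 105, 195 and 176 CPM at 3 d. The vehicle libraries lay above all others, at 18 h by a narrow margin to replicate 2. The log2 fold change was -0.56 ± 0.16 (SE, adjusted p = 0.0118) at 18 h and -0.66 ± 0.18 (SE, adjusted p = 0.00865) at 3 d, and the first call was lost under library totals (-0.41, adjusted p = 0.062). Psma4 stood at 17.2, 14.4, 31.5, 11.6 and 10.0 CPM in the vehicle libraries, at 42.6, 67.6, 42.7, 49 and 28.8 CPM at 18 h and at 45.8, 17.1, 49.1 and 30.3 CPM at 3 d. Vehicle replicate 3 lay within the range of both dexamethasone groups, and 3 d replicates 2 and 4 within that of vehicle. Psma4 rose by 1.40 ± 0.31 (SE, adjusted p = 0.00204) at 18 h and by 1.04 ± 0.34 (SE, adjusted p = 0.0276) at 3 d. The 18 h call held in every alternative run, and the 3 d call was lost without vehicle replicate 1, 2, 4 or 5 or 3 d replicate 1 or 3 (0.86 to 1.03, adjusted p 0.056 to 0.11). The last 300 bases of Psma4 are 98.3% identical to the pseudogene transcript Gm6542, with the counting of reads that fit both not given in the sources used here.

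The other alpha genes were not called at either time, and for some the call turned on vehicle replicate 3. Psma3 stood at 22.8, 5.56, 96.6, 40.3 and 32.4 CPM in the vehicle libraries, at 92, 118, 57.4, 79.2 and 59.1 CPM at 18 h and at 90.3, 66.4, 119 and 70.2 CPM at 3 d. Vehicle replicate 3 was the highest of its group and lay within both dexamethasone ranges. Psma3 differed by 0.97 ± 0.45 (SE, adjusted p = 0.109) and 1.07 ± 0.47 (SE, adjusted p = 0.108), and without vehicle replicate 3 by 1.61 (adjusted p = 0.0022) and 1.70 (0.0025). Without the same library Psma1 (0.77, adjusted p = 0.042) and Psma5 (0.89, 0.0069) passed at 18 h and Psma1 at 3 d (0.83, 0.044), where with it Psma1 differed by 0.45 ± 0.31 and 0.51 ± 0.32 and Psma5 by 0.53 ± 0.29 at 18 h. Psma6 and Psma7, also of the alpha ring, differed by -0.05 ± 0.18 and -0.18 ± 0.16 at 18 h and by -0.12 ± 0.19 and -0.36 ± 0.17 at 3 d.

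None of the 8 beta genes that are members was called at 18 h, and at 3 d Psmb2 fell and Psmb3 rose, both non-catalytic subunits of the beta ring. Psmb2 stood at 185, 196, 137, 151 and 163 CPM in the vehicle libraries, at 129.6, 152, 154, 139 and 127 CPM at 18 h and at 114, 109, 93.2 and 122 CPM at 3 d. The 3 d libraries all lay below vehicle, and the 18 h libraries overlapped it. Psmb2 differed by -0.24 ± 0.14 (SE, adjusted p = 0.17) at 18 h and by -0.60 ± 0.15 (SE, adjusted p = 0.00535) at 3 d, a call that held in every alternative run. Psmb3 stood at 165, 187, 171, 143 and 105 CPM in the vehicle libraries, at 181, 256, 199, 142 and 182 CPM at 18 h and at 233, 247, 260.0 and 178 CPM at 3 d. The groups overlapped through 3 d replicate 4. Psmb3 differed by 0.57 ± 0.18 (SE, adjusted p = 0.0233) at 3 d, which was lost without vehicle replicate 4 or 5 or 3 d replicate 1, 2 or 3 (0.46 to 0.55, adjusted p 0.059 to 0.078). The last bases of Psmb3 match 3 pseudogene transcripts at up to 99.2% identity. Psmb1 (-0.14 ± 0.14 and -0.36 ± 0.15) and Psmb4 (-0.08 ± 0.14 and -0.03 ± 0.15) were not called.

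The catalytic subunits were not called in either comparison. Psmb5 stood at 89.8, 110.0, 104, 109 and 115 CPM in the vehicle libraries, at 133, 129, 102, 111 and 97.5 CPM at 18 h and at 135, 155, 104 and 95.7 CPM at 3 d. Psmb6 stood at 359.8, 404, 339, 333 and 388 CPM in the vehicle libraries, at 274, 318, 312, 309 and 300.1 CPM at 18 h and at 316, 320.5, 309 and 323 CPM at 3 d. Psmb5 overlapped between all groups, whereas for Psmb6 every dexamethasone library lay below every vehicle library. Psmb5 differed by 0.12 ± 0.15 (SE, adjusted p = 0.58) and 0.21 ± 0.16 (SE, adjusted p = 0.343). The last bases of Psmb5 match 2 pseudogene transcripts at up to 99.6% identity, so its counts may be split between copies. Psmb6 differed by -0.27 ± 0.12 (SE, adjusted p = 0.0809) and -0.20 ± 0.12 (SE, adjusted p = 0.242), and in DESeq2's Wald test it passed at 18 h (-0.27, adjusted p = 0.024). Psmb7 stood at 82.2, 64.5, 58, 93.3 and 78.6 CPM in the vehicle libraries, at 44.3, 82.2, 61.8, 46.7 and 52.2 CPM at 18 h and at 63.1, 37, 80.5 and 55.8 CPM at 3 d. The groups overlapped at both times, and 18 h replicate 2 was the highest of its group. Psmb7 differed by -0.40 ± 0.21 (SE, adjusted p = 0.134) and -0.35 ± 0.22 (SE, adjusted p = 0.247), and passed at 18 h without replicates 2 and 3 (-0.66, adjusted p = 0.034).

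Psmb10, the immune form that takes the place of Psmb7, was also not called. Psmb10 stood at 686, 842, 656, 688 and 862 CPM in the vehicle libraries, at 959, 628, 924, 1257 and 849 CPM at 18 h and at 699.6, 809.8, 778 and 694 CPM at 3 d. The 18 h group held both the highest and the lowest value of the 14. The difference was 0.31 ± 0.16 (SE, adjusted p = 0.139) at 18 h and -0.00 ± 0.17 (SE, adjusted p = 0.994) at 3 d. It passed at 18 h without replicates 2 and 3 (0.46, adjusted p = 0.044), without replicate 2 alone (0.42, 0.036) and under library totals (0.45, 0.021).

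Each immune subunit was set against the constitutive subunit it replaces, as a log2 ratio of counts within a library, which no scaling changes. The ratio of Psmb9 to Psmb6 was 0.07 ± 0.18 (SD, n = 5) in vehicle, 0.77 ± 0.21 (n = 5) at 18 h and 0.11 ± 0.12 (n = 4) at 3 d. The 18 h libraries all lay above all others, and vehicle and 3 d overlapped. The 18 h ratio was higher than vehicle by 0.71 ± 0.13 (SE) in an exact two-sided permutation test (p = 0.0079, the smallest this design allows, adjusted p = 0.0357 over 9 ratios). From 18 h to 3 d it fell by 0.67 ± 0.11 (exact p = 0.0079, adjusted 0.0357), and 3 d exceeded vehicle by 0.04 (exact p = 0.714, adjusted 0.804). Without 18 h replicates 2 and 3 the first 2 differences were 0.79 (adjusted p = 0.0804) and -0.75 (0.0857) in a design that can reach only larger p-values. Leaving out 1 library gave adjusted p of up to 0.0714 for the first (0.64 to 0.78) and 0.1286 for the second (-0.74 to -0.60). The 18 h libraries stayed above all others in these runs, so p was the smallest each smaller design allows. A missed threshold there cannot show that the difference was weaker. Psmb9 itself, which is not among the 46, stood at 351, 408, 388, 413 and 350.0 CPM in vehicle, 512, 450.3, 542, 635 and 466 at 18 h and 364, 309, 325 and 372 at 3 d. It rose by 0.45 ± 0.13 (SE, adjusted p = 0.0111) at 18 h and differed by -0.61 ± 0.14 (SE, adjusted p = 0.00608) from 18 h to 3 d, and both calls held in every alternative run. The ratio of Psmb10 to Psmb7 differed by 0.69 ± 0.34 at 18 h (exact permutation test, adjusted p = 0.232) and by 0.38 ± 0.30 at 3 d (adjusted p = 0.369), and passed at 18 h without replicate 2 (0.95, adjusted p = 0.0357). The ratio for Psmb8 to Psmb5 differed by 0.04 ± 0.16 (adjusted p = 0.8095) and by -0.33 ± 0.18 (adjusted p = 0.243). This ratio carries the limit of the near copies of Psmb5 given above.

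**Figure D3:**
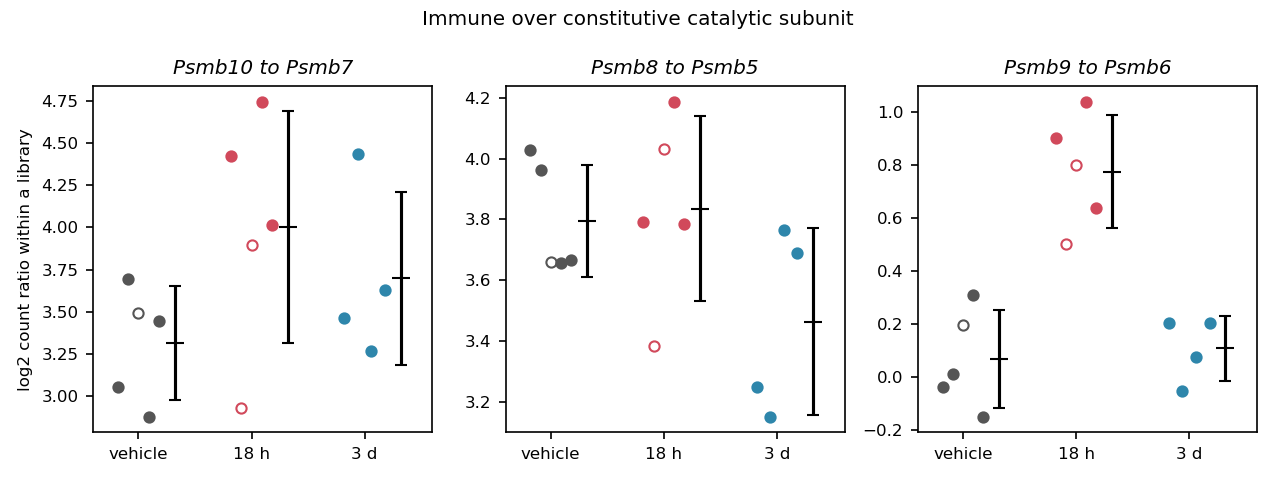
Log2 ratio of counts of each immune subunit to the subunit it replaces (y axis), 1 point per library, in vehicle, 18 h and 3 d (x axis), with the mean and SD. For Psmb9 to Psmb6 the 5 libraries at 18 h lie above all others; for the other pairs the groups overlap.

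Of the 5 immunoproteasome genes Psmb8, Psmb9, Psmb10, Psme1 and Psme2, 1 rose at 18 h, none passed at 3 d, and 2 were lower at 3 d than at 18 h, Psmb9 and Psme2. The shares called were 20%, 0% and 40%, against 34.3%, 25.9% and 11.7% of all genes.

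The activator genes moved in different directions. Psme3, whose product caps the core in the nucleus, fell at both times. Psme3 stood at 204, 196, 105, 181 and 207 CPM in the vehicle libraries, at 65.2, 71.9, 118, 129 and 108 CPM at 18 h and at 102, 113, 87.2 and 109 CPM at 3 d. Vehicle replicate 3 lay far below the other 4 vehicle libraries and within the dexamethasone range, and without it the groups would not overlap. Psme3 differed by -0.84 ± 0.20 (SE, adjusted p = 0.00258) at 18 h and by -0.79 ± 0.21 (SE, adjusted p = 0.00966) at 3 d, and both calls held in every alternative run. Psme1 stood at 1645, 1490.0, 1184, 1799 and 1795 CPM in the vehicle libraries, at 1188, 1251, 1434, 1812 and 1262 CPM at 18 h and at 1177, 1102, 1402 and 1229 CPM at 3 d. The groups overlapped at both times. Psme1, one chain of the interferon-inducible activator, differed by -0.19 ± 0.15 (SE, adjusted p = 0.353) and -0.37 ± 0.16 (SE, adjusted p = 0.0979), and passed at 3 d without vehicle replicate 3 (-0.46, adjusted p = 0.027).

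Psme2, the other chain of that activator, was the only proteasome gene called between the times, against 11.7% of all genes called (6.91% lower, 4.78% higher). At an unadjusted p below 0.05 in that test there were 5 of 45 members, against 2013 of all 7965 genes, so the members did not exceed the share of all genes. The 2 times did not overlap for 4 members, all lower at 3 d, against 11.1% of all genes (6.14% lower, 5.01% higher). Psme2 stood at 674, 629, 741, 725 and 577 CPM in the vehicle libraries, at 625, 807, 781, 839 and 718 CPM at 18 h and at 569, 499, 569 and 553 CPM at 3 d. All 3 d libraries lay below all 18 h and all vehicle libraries, and 18 h overlapped vehicle. Psme2 was lower at 3 d than at 18 h, with a log2 fold change of -0.46 ± 0.14 (SE, adjusted p = 0.0323), and differed from vehicle by 0.17 ± 0.13 (SE, adjusted p = 0.318) at 18 h and -0.29 ± 0.14 (SE, adjusted p = 0.125) at 3 d. The call was lost without 18 h replicate 2, 3 or 4 or any 3 d replicate (-0.49 to -0.42, adjusted p 0.058 to 0.1), in a fit of those 2 groups alone (-0.47, 0.057) and without 18 h replicates 2 and 3 together (-0.41, 0.13).

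Psme2b, annotated on chromosome 11, encodes a near copy of the Psme2 chain: the last 300 bases of Psme2 are 99.0% identical to it, so reads may be split between them. Psme2b stood at 47.7, 46.7, 74.8, 36.4 and 24.7 CPM in the vehicle libraries, at 146, 138, 129.5, 93.3 and 114 CPM at 18 h and at 77.7, 69.2, 112 and 50.3 CPM at 3 d. Every 18 h library lay above every vehicle library, and 3 d libraries overlapped both groups. Psme2b rose by 1.41 ± 0.24 (SE, adjusted p = 1.79e-04) at 18 h, which held in every alternative run, and by 0.73 ± 0.26 (SE, adjusted p = 0.0425) at 3 d. The direct comparison of 3 d with 18 h gave -0.68 ± 0.25 (SE, adjusted p = 0.0858) and was not called. The 3 d call was lost without vehicle replicate 1, 2, 4 or 5 or 3 d replicate 1, 2 or 3 (0.50 to 0.77, adjusted p 0.062 to 0.19) and, in the joint fit of all groups, without 18 h replicates 2 and 3 (0.73, 0.051). Of the counts of both genes together, Psme2b took 6.31% ± 1.99 (SD) in vehicle, 14.3% ± 3.19 at 18 h and 12.2% ± 3.31 at 3 d. Their summed level was 715 ± 81.6, 878 ± 74.2 and 625 ± 49.5 CPM. The gene (GENCODE M21, chr11:48945354-48946190, minus strand) lies within the gene model Gm12185, which had 0 to 9 counts per library, and overlaps 9930111J21Rik1 on the same strand. Within 200 kb stand the interferon-inducible GTPase genes Irgm1, Tgtp1, Tgtp2 and Ifi47. Its promoter, printed above, holds the GAACAGTCTGTGC match, and lies at the RefSeq start, upstream of the GENCODE one.

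Psme4, which encodes the large nuclear activator, was scarce. Psme4 stood at 5.08, 7.78, 16.8, 8.83 and 6.94 CPM in the vehicle libraries, at 14.2, 18, 15.4, 17.9 and 13.7 CPM at 18 h and at 12, 11.4, 12.7 and 11 CPM at 3 d. Vehicle replicate 3 lay among the 18 h libraries. It differed by 0.77 ± 0.29 (SE, adjusted p = 0.0404) at 18 h, a call lost without vehicle replicate 1, 2, 4 or 5 or 18 h replicate 2, 3 or 4 (0.60 to 0.79, adjusted p 0.059 to 0.12) and without 18 h replicates 2 and 3 together (0.73, 0.11), and by 0.34 ± 0.32 (SE, adjusted p = 0.442) at 3 d. The 18 h call was also lost in a fit of the vehicle and 18 h groups alone (0.80, adjusted p = 0.0535). The inhibitor Psmf1 differed by -0.24 ± 0.33 and -0.34 ± 0.36 and was not called.

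Psmg2, an assembly factor, fell at both times. With Psmg1 its product forms the chaperone pair that starts the alpha ring. Psmg2 stood at 168, 190.0, 116, 218 and 171 CPM in the vehicle libraries, at 53.5, 59.1, 86.8, 107 and 94.8 CPM at 18 h and at 57.8, 74.9, 59.3 and 91.6 CPM at 3 d. No dexamethasone library reached the vehicle range. Psmg2 differed by -1.09 ± 0.20 (SE, adjusted p = 3.2e-04) at 18 h and by -1.28 ± 0.22 (SE, adjusted p = 2.98e-04) at 3 d, and both calls held in every alternative run. Its partner Psmg1 differed by 0.30 ± 0.23 (SE, adjusted p = 0.327) and 0.27 ± 0.25 (SE, adjusted p = 0.443), and Psmg3 and Psmg4, the second chaperone pair, by 0.01 ± 0.15 and -0.23 ± 0.18 at 18 h and by -0.18 ± 0.16 and -0.43 ± 0.19 at 3 d, with no call.

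The summed level of each class describes its members together and was not tested. The 20 regulatory genes tested and Psmd9 summed to 2965 ± 229 CPM (SD) in vehicle, 2372 ± 139 CPM at 18 h and 2355 ± 18.6 CPM at 3 d. The lowest vehicle library, at 2605 CPM, lay above the highest dexamethasone library, at 2453 CPM, and under library totals the 18 h range (2353 to 2695 CPM) reached into that of vehicle (2598 to 3063 CPM). The 15 core genes summed to 3764 ± 220 CPM, 3759 ± 256 CPM and 3481 ± 93.7 CPM, with overlapping ranges. Activators and assembly factors summed to 2933 ± 272 CPM, 2719 ± 405 CPM and 2270 ± 135 CPM, where 3 d lay below vehicle and 18 h overlapped both. Psme1 and Psme2, neither called against vehicle, made up most of this sum. The other 8 genes of the class summed to 681 ± 43.0, 576 ± 93.0 and 495 ± 25.9 CPM. The count ratio of regulatory to core genes, which no scaling changes, was 0.791 ± 0.0861 (range 0.679 to 0.877) in vehicle, 0.633 ± 0.0463 (0.581 to 0.689) at 18 h and 0.677 ± 0.0224 (0.663 to 0.71) at 3 d. Vehicle replicate 3, at 0.679, was the only vehicle library within the dexamethasone ranges.

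**Figure D4:**
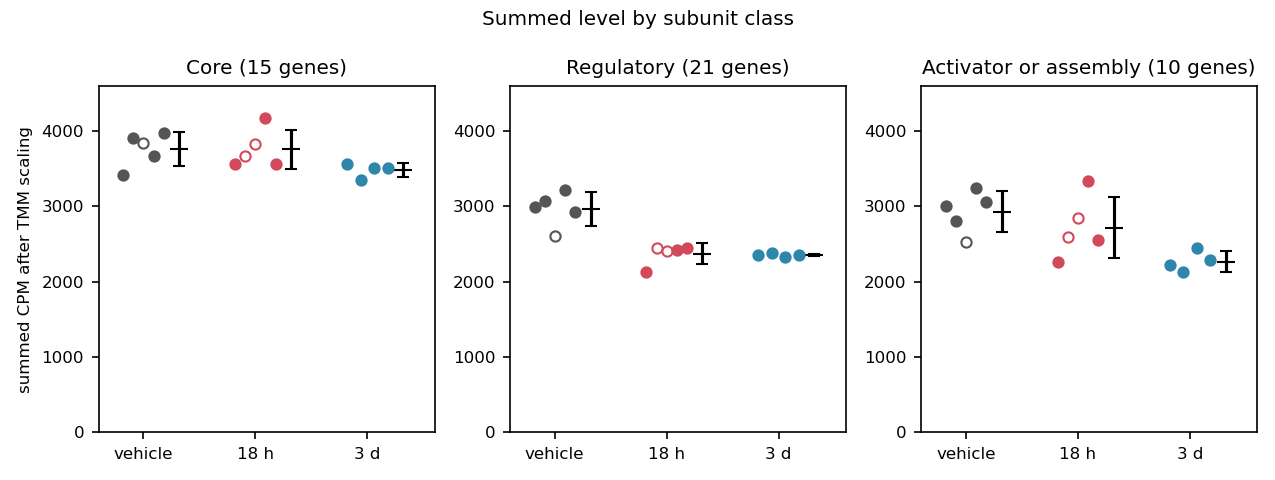
Summed CPM (y axis, from 0) of core, regulatory, and activator and assembly genes in each library, by group (x axis), with the mean and SD. Regulatory sums in all 9 dexamethasone libraries lie below the 5 vehicle libraries; core sums overlap.

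Libraries were not equally placed over the members. Of the 5 libraries at 18 h, replicate 1 was the lowest for 24 of the 45 genes (53.3%), against 24.2% of all genes tested, and replicate 2 the highest for 17 (37.8% against 23.3%). Vehicle replicate 3 was the highest of its group for 12 genes and the lowest for 15 (26.7% and 33.3%), against 28.7% and 28.6% of all genes. Near copies were found for 8 of the 46 genes, and 22 overlap another annotated gene. Of the 4 genes higher at either time 3 have a near copy (Psma4, Psmb3, Psme2b), and of the 12 lower genes 2 do (Psmd2, Psmd11).

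Beyond the subunits, 18 of 23 genes for proteins that bind, assemble or regulate the proteasome could be tested, a list drawn up with earlier results of these data known. At 18 h 4 were higher, 3 lower and 11 not called (38.9% called, against 34.3% of all genes, median 0), and at 3 d 4 were higher, 1 lower and 13 not called (27.8%, against 25.9%, median 0.17). Pomp, the chaperone of the maturing beta ring, stood at 290.3, 227, 221, 260.0 and 229.7 CPM in vehicle, 120.4, 152, 152, 167 and 175 at 18 h and 159, 141, 158 and 157 at 3 d. All dexamethasone libraries lay below all vehicle libraries. Pomp differed by -0.68 ± 0.13 (adjusted p = 5.53e-04) at 18 h and -0.67 ± 0.14 (0.00174) at 3 d. Zfand2a, a stress-induced binding partner of the proteasome, stood at 25.4, 30.01, 30.5, 27.6 and 25.4, then 67.7, 50.5, 52.2, 86.8 and 45.3 and then 55.1, 46.5, 49.97 and 33.8 CPM, with no overlap with vehicle at either time. It rose by 1.13 ± 0.20 (adjusted p = 1.8e-04) at 18 h and by 0.74 ± 0.21 (0.0143) at 3 d, the latter lost without 3 d replicate 1 (0.62, 0.07).

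AI314180, which encodes an adaptor and scaffold of the proteasome, rose by 1.05 ± 0.26 (adjusted p = 0.00344) at 18 h and by 1.02 ± 0.27 (0.009) at 3 d. Ngly1, which removes glycans from proteins bound for the proteasome, rose by 1.22 ± 0.32 (0.00575) and 1.54 ± 0.33 (0.00194), and at 18 h missed the threshold without replicates 2 and 3 (0.88, 0.07). Adrm1, a ubiquitin receptor of the particle, rose by 0.77 ± 0.23 (0.0154) at 18 h, lost without replicates 2 and 3 (0.60, 0.097), and by 0.86 ± 0.25 (0.0142) at 3 d. Nfe2l1, a transcription factor known to raise proteasome genes when the proteasome is inhibited, differed by 0.15 ± 0.18 (0.546) and 0.19 ± 0.19 (0.484).

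Of 9 ubiquitin and p97 genes reported here, 7 could be tested. None rose and 2 fell at 18 h (28.6% called, against 34.3% of all genes, median -0.16), while at 3 d 2 rose and 1 fell (42.9% called, median 0.01, against 25.9% and 0.03 over all genes). None was called between the times. Rps27a, which encodes ubiquitin fused to a ribosomal protein, stood at 917, 1138, 2266, 1065 and 1265 CPM in vehicle, 1815, 1650.0, 1729, 2436 and 1770.0 at 18 h and 2360.0, 2484, 2161 and 2344 at 3 d. Vehicle replicate 3 lay within the range of both dexamethasone groups, and the other 4 vehicle libraries lay below both. Rps27a differed by 0.50 ± 0.19 (adjusted p = 0.0516) at 18 h and rose by 0.81 ± 0.21 (0.00643) at 3 d, a call that held in every alternative run. Ubb, which encodes ubiquitin repeats, stood at 3.04, 6.67, 14.8, 2.21 and 11.6 CPM in vehicle, 20.1, 14.6, 8.10, 9.90 and 8.93 at 18 h and 67.1, 25.6, 23.7 and 11.7 at 3 d. Its groups overlapped, and 3 d replicate 1 was far above the other libraries. Ubb differed by 0.66 ± 0.54 (0.358) at 18 h and rose by 2.08 ± 0.52 (0.00805) at 3 d, which missed the threshold without 3 d replicate 1 (1.37, 0.051). Uba1, the enzyme that activates ubiquitin, stood at 540.0, 429, 261, 472 and 459.5, then 219.9, 268, 286, 311 and 292 and then 242, 342, 362 and 261 CPM. It fell by 0.65 ± 0.17 (0.00644) at 18 h and by 0.52 ± 0.19 (0.0419) at 3 d, the latter lost without vehicle replicate 1, 2, 4 or 5 or 3 d replicate 1 or 4 (-0.52 to -0.43, adjusted p 0.068 to 0.12) and under library totals (-0.44, 0.068). Nsfl1c, an adaptor of the p97 ATPase, fell by 0.41 ± 0.15 (0.0355) at 18 h, lost without vehicle replicate 1 or 5 or 18 h replicate 1, 2, 3 or 5 (-0.41 to -0.34, adjusted p 0.053 to 0.11), under library totals (-0.27, 0.15) and without 18 h replicates 2 and 3 together (-0.42, 0.0832). A fit of the vehicle and 18 h groups alone lost it too (-0.38, 0.0628).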

How the data were processed

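The authors deposited 1 table for the series. Tests used only its raw columns, which hold whole counts of each gene. The deposited normalized columns (a signal, the count divided by a size factor per library), regularised log2 values, log2 fold changes and p-values were not used in the tests. Per the submitters' processing notes the build was mm10 and the tools bcl2fastq, cutadapt, STAR 2.5.2b, HTSeq and DESeq2. Treatment of molecular identifiers and strand was not given in the sources used here.

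Of 10320 names, 17 were symbols turned into dates and were left out. No pair of replicates was within counting noise (chi-square over its degrees of freedom 3.28 to 14.6). In R 4.3.3, edgeR 4.0.16 filtered genes by group, scaled libraries by TMM and fitted all 3 groups in 1 robust quasi-likelihood model. P-values were adjusted by Benjamini-Hochberg over all 7965 genes tested, two-sided, with a threshold of 0.05. Levels are CPM after TMM scaling, and errors of fold changes are SE, derived from the fold change and the F value of its test. Confidence intervals are approximate 95% intervals, from that SE by a normal approximation. They can leave out 0 where the test does not pass. For Psmd2 at 3 d the interval was -0.6576 to -0.0019, with an unadjusted p of 0.0614 in the quasi-likelihood test. Ratios within a library used a pseudocount of 0.5 and exact permutation tests. Copies were searched with BLAST 2.17.0 in GENCODE M21 transcripts, from the last 300 bases of each gene, at 95% identity or more over at least 200 bases. The scripts were tested on simulated data.

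Genes given with a value in every library were Psmb5, Psmb6, Psmb7, Psmb10, Psme1, Psme2, Psme3 and, in each comparison, up to 3 rises and 3 falls of largest size among called members of each class. Up to 4 called genes of each pathway list were named by adjusted p. Others, among them Psmc3, Psma3, Psmd1, Psmd2 and Nfe2l1, were chosen after their values were seen. The members and lists were chosen with earlier results of these data known. Alternatives were other scalings, DESeq2 1.42.0, other filters, fits of 2 groups, replicate blocks, and leaving out libraries. A pair of genes of the ubiquitin and p97 list is not reported here, and that list's counts leave them out.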

Additional observations from a re-analysis of the deposited data

Results flagged for a closer look

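Among 75 groups of 4 or 5 values checked, 2 held a library far from the others, where chance gives about 1 in 20. Psme3 stood at 105 CPM in vehicle replicate 3, the lowest of 5, and its falls at 18 h and 3 d passed without that library too. The summed level of the regulatory genes in 18 h replicate 1 was 2126 CPM, the lowest of 5.

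Psme2 differed between the times against the same vehicle group, with a log2 fold change of -0.46 from 18 h to 3 d (edgeR, adjusted p = 0.0323). The log2 ratio of Psmb9 to Psmb6 also differed between the times, by -0.67 (exact permutation test, adjusted p = 0.0357). Both were calls between 18 h and 3 d, for which vehicle cells at 18 h were not measured.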

How the results depend on the processing

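Of 663 recomputed values of proteasome genes that passed the test as reported or in the alternative, none changed sign, 548 passed in both, 74 missed the threshold and 41 passed anew. Genes not called as reported entered only where they passed, so a change of sign was unlikely in this set. The runs counted include those that left out a library of the group not compared. Calls that held in every alternative, including leaving out each library of the groups compared, numbered 7 of 13 at 18 h and 7 of 12 at 3 d. The share of calls that held in this way was not computed over all genes. With library totals as the only scaling, 6 genes were lower at 18 h in place of 10, where 34.2% of all genes were called. The call between the times fell to 0 in a fit of those 2 groups alone and without 18 h replicates 2 and 3.

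The replicate numbers showed no sign of pairing: deviations of libraries with the same number correlated at -0.21 to 0.15. Libraries of unlike number were not compared in this way, so whether equal numbers mark a shared origin cannot be told. With a replicate block by the number in the title, 3 genes rose and 10 fell at 18 h, and 3 rose and 8 fell at 3 d, where Psmc3 missed the threshold (-0.38, adjusted p = 0.0966). Between the times the title block called 1 gene, Psme2b (-0.83, 0.0122), in place of Psme2 (-0.49, 0.0584), and the description block called 0 (Psme2 -0.45, 0.094). Both blocks also ended the calls of Uba1 at 3 d (-0.49, 0.105 and -0.52, 0.0757) and of Nsfl1c at 18 h (-0.40, 0.0738 and -0.41, 0.0718). No other count of member calls moved by over 1.5 times under a block.

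Leaving out 1 library gave 2 to 6 higher and 8 to 12 lower genes at 18 h, 0 to 5 higher and 7 to 11 lower at 3 d, and 0 to 2 lower between the times. Of all genes, 27.3% to 39.9% were called at 18 h in these runs, 18.2% to 32.7% at 3 d and 8.08% to 13% between the times. The highest counts of rises came without vehicle replicate 3, as did the highest shares of all genes called against vehicle. The log2 ratio of Psmb9 to Psmb6 ranged from 0.64 to 0.78 at 18 h, from -0.74 to -0.60 between the times and from -0.013 to 0.10 at 3 d, negative without vehicle replicate 5. Without 18 h replicates 2 and 3 it was 0.79 (adjusted p = 0.0804) and -0.75 (0.0857). That of Psmb8 to Psmb5 at 18 h ranged from -0.047 to 0.15, negative without 18 h replicate 3 (-0.0073) or 4 (-0.047), and that of Psmb10 to Psmb7 from 0.50 to 0.95. The cause of these changes was not tested.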
